A study of Mus musculus with 15 samples.

Results

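The genes described here are 35 genes of mitosis and the spindle checkpoint, chosen by symbol and matched to the Entrez gene IDs of the deposited tables. They were chosen with earlier results of these data known, so counts set beside all genes are description and not a test of the set. All 35 were found among the 36528 genes listed, and all 35 passed the filter on low counts. RNA came from mouse small intestine at E16.5, late in gestation, in 15 libraries of 3 genotypes with 5 libraries each. Every embryo lacked Mlkl, the pseudokinase that carries out necroptosis. The C362A group carried a Casp8 knockin with the C362A substitution, which removes the catalytic cysteine of caspase-8, and its tissue was labelled as inflamed. The knockout group lacked Casp8, and the wildtype group had wildtype Casp8. The labels name no separate animals, litters or library batches and give no sex, so p-values measure the spread between these samples, which may be partly technical.

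Entry into mitosis is driven by cyclin-dependent kinase 1 with its B and A type cyclins, while Polo-like and Aurora kinases build the spindle and correct its attachments. The spindle checkpoint holds the anaphase-promoting complex in check through Cdc20 until every kinetochore is attached, after which cyclin B and securin are destroyed and separase cuts cohesin. Most of these genes are transcribed in late S phase and G2 under the MuvB complex, B-Myb and Foxm1, and in the embryonic gut their transcripts mark dividing epithelial and mesenchymal cells. In RNA from whole tissue, a larger share of dividing cells and more RNA per dividing cell cannot be told apart.

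Libraries held between 31896399 and 38532127 counts, of which the 35 genes took 0.304% to 0.440% in C362A, 0.305% to 0.345% in knockout and 0.242% to 0.373% in wildtype libraries. Levels are given as CPM, the counts scaled to library size with TMM factors. Each of the 35 genes had between 349 and 16290 counts in a library, so counting error was small beside the spread over the 15 libraries. It was not always small beside the spread within a single genotype. Casp8 itself averaged 69.9 ± 3.41 CPM over the C362A libraries, 14.4 ± 1.65 CPM over the knockout libraries and 70.04 ± 5.97 CPM over the wildtype libraries (SD, n = 5 each), with no overlap between knockout and the other groups. Defining markers of intestinal epithelium and enterocytes were present in every group, and of the 12 pan-epithelial and 25 enterocyte markers none was at 0 in a whole group. The sample ID numbers in the labels form 2 consecutive runs, a lower run with 2 libraries per genotype and a higher run with 3 per genotype, and the labels do not say what the runs are. The summed level of 4 Y-linked genes (Ddx3y, Eif2s3y, Kdm5d and Uty) was 0 to 0.190 CPM in C362A replicates 2, 3 and 5, knockout replicate 2 and wildtype replicate 5, and 92.4 to 156 CPM in the other 10 libraries, so the sexes were not balanced between the groups. With the Y-linked level as a covariate, the median log2 fold change of the 35 genes was 0.29 in C362A against wildtype and 0 of the 35 were called (edgeR). The share of all genes called in that fit is not given here.

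Promoter sequence was available in RefSeq (GRCm38.p6) for 28 of the 35 genes, with 30 windows of 300 bases that run from 250 bases before to 50 after a transcript start. The 6-base motif TTTGAA, the usual core of the cell cycle homology region bound by MuvB, was found on either strand in 76.7% of these windows and in 17.9% of the 32851 mouse windows of the same kind. The related TTTAAA was in 26.7% of them against 13.2% of all windows, and CCAAT, the box bound by NF-Y, was in 83.3% against 37.4%. CCAAT occurred at least 2 times in 56.7% against 11.7%, and TTTGAA together with CCAAT in 70.0% against 6.95%. GGCGGG was in 80.0% against 35.3%. Matches of different motifs may share bases. Bub1, Mad2l1, Nek2 and Nuf2 had neither TTTGAA nor TTTAAA in the window, and Nuf2 and Mad2l1 lacked CCAAT there as well. No window was used for Aurkb, Ccna2, Cdc25c, Foxm1, Incenp, Kif20a or Tpx2.

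The windows of 5 genes are printed to show the range, from Top2a with 6 CCAAT boxes to Nuf2 with no match. Top2a, Ccnb2, Plk1 and Nuf2 are genes that varied closely with the rest of the set over the libraries, and Mki67 is the gene that did so least. Each reads 5′ to 3′ on the strand of its gene, and capitals mark matches on either strand to the motifs named above other than GGCGGG.
Top2a, chr11:99024140-99024439, minus strand: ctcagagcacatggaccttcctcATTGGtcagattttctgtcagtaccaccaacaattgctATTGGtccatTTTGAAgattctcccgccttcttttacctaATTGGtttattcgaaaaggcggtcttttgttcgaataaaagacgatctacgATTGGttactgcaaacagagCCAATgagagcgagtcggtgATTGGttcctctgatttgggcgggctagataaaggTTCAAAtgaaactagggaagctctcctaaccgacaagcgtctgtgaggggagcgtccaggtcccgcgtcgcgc
Ccnb2, chr9:70421505-70421804, minus strand: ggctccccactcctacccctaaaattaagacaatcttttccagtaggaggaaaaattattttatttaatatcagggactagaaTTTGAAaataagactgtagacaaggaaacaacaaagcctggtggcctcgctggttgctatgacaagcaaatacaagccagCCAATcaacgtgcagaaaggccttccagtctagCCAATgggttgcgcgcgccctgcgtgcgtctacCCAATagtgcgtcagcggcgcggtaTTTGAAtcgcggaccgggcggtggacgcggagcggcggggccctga
Mki67, chr7:135716330-135716629, minus strand: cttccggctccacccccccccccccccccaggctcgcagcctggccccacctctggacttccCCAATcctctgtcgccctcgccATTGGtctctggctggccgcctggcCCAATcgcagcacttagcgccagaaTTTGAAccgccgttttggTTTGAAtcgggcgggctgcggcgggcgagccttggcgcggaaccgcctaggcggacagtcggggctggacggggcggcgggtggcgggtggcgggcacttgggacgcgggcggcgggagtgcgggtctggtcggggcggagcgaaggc
Plk1, chr7:122159185-122159484, plus strand: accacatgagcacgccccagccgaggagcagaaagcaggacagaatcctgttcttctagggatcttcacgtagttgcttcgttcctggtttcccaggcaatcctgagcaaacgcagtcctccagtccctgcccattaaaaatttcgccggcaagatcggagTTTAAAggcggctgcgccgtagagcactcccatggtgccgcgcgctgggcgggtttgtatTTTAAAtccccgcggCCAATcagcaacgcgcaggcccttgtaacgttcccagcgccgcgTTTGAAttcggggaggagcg
Nuf2, chr1:169531415-169531714, minus strand: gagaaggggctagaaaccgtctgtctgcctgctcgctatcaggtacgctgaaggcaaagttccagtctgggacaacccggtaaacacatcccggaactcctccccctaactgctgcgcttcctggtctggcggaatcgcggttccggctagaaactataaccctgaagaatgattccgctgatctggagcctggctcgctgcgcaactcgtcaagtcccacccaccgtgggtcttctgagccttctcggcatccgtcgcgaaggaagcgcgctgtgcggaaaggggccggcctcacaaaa
Top2a, Ccnb2 and Mki67 each held TTTGAA at 2 places, Plk1 held TTTAAA at 2 places and TTTGAA at 1, and a match or its absence describes only these letters in this window.

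All 35 genes had a positive log2 fold change in C362A against wildtype, with a median of 0.27 (a 1.21-fold difference) beside 0.01 over the 18370 genes tested, of which 51.4% were positive. The smallest was 0.07 for Cenpa and the largest 0.43 for Anln. None of the 35 passed the test, edgeR's quasi-likelihood test adjusted over all genes and called under 0.05, with adjusted p between 0.285 and 0.713, while 0.0817% of all genes were called higher. Before adjustment, at p under 0.05, 19 of the 35 were higher and 0 lower, where 8.08% of all genes were higher and 7.8% lower. The 35 genes varied together within genotypes (median Pearson r 0.82 over pairs of genes), so these counts are not 35 separate results. DESeq2 and limma-voom also called 0 of the 35, with 0.256% and 0.0762% of all genes called higher. For no gene were the C362A and wildtype libraries fully apart (0.86% of all genes were, with C362A higher), but for 13 of the 35 at least 4 of the 5 C362A libraries lay above every wildtype library, as they did for 6.28% of all genes.

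The count of called genes depended on C362A replicate 5. It was the lowest of the C362A libraries for 34 of the 35 genes, within the wildtype range for 34 and below it for Plk1. Without it, 17 of the 35 genes were called higher in C362A against wildtype and none lower. Of all genes, 4.29% were called higher and 5.47% lower. The median log2 fold change was 0.34 (a 1.26-fold difference, edgeR adjusted p between 0.0187 and 0.461 over the 35 genes). Leaving out any other library gave 0 of 35. C362A replicate 5 was singled out by the levels of these same genes. Leaving out the lowest library of a group raises its mean in any case, so the calls without it are not separate support for a difference. For the mean of the 35 genes, its gap to the next C362A library over the range of the group was 0.468. This is under Dixon's critical value of 0.71. The 17 were Top2a, Ccnb2, Plk1, Tpx2, Aurkb, Incenp, Bub1, Bub1b, Ttk, Nuf2, Kif11, Kif20a, Kif23, Kif4, Prc1, Anln and Cdc20. At the other end, C362A replicate 1 lay above the wildtype range for 33 genes, replicate 3 for 28, replicate 4 for 26 and replicate 2 for 13. The shares of all genes in these positions, library by library, were not computed. The counts therefore cannot be read as particular to the 35 genes.

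**Figure D1:**
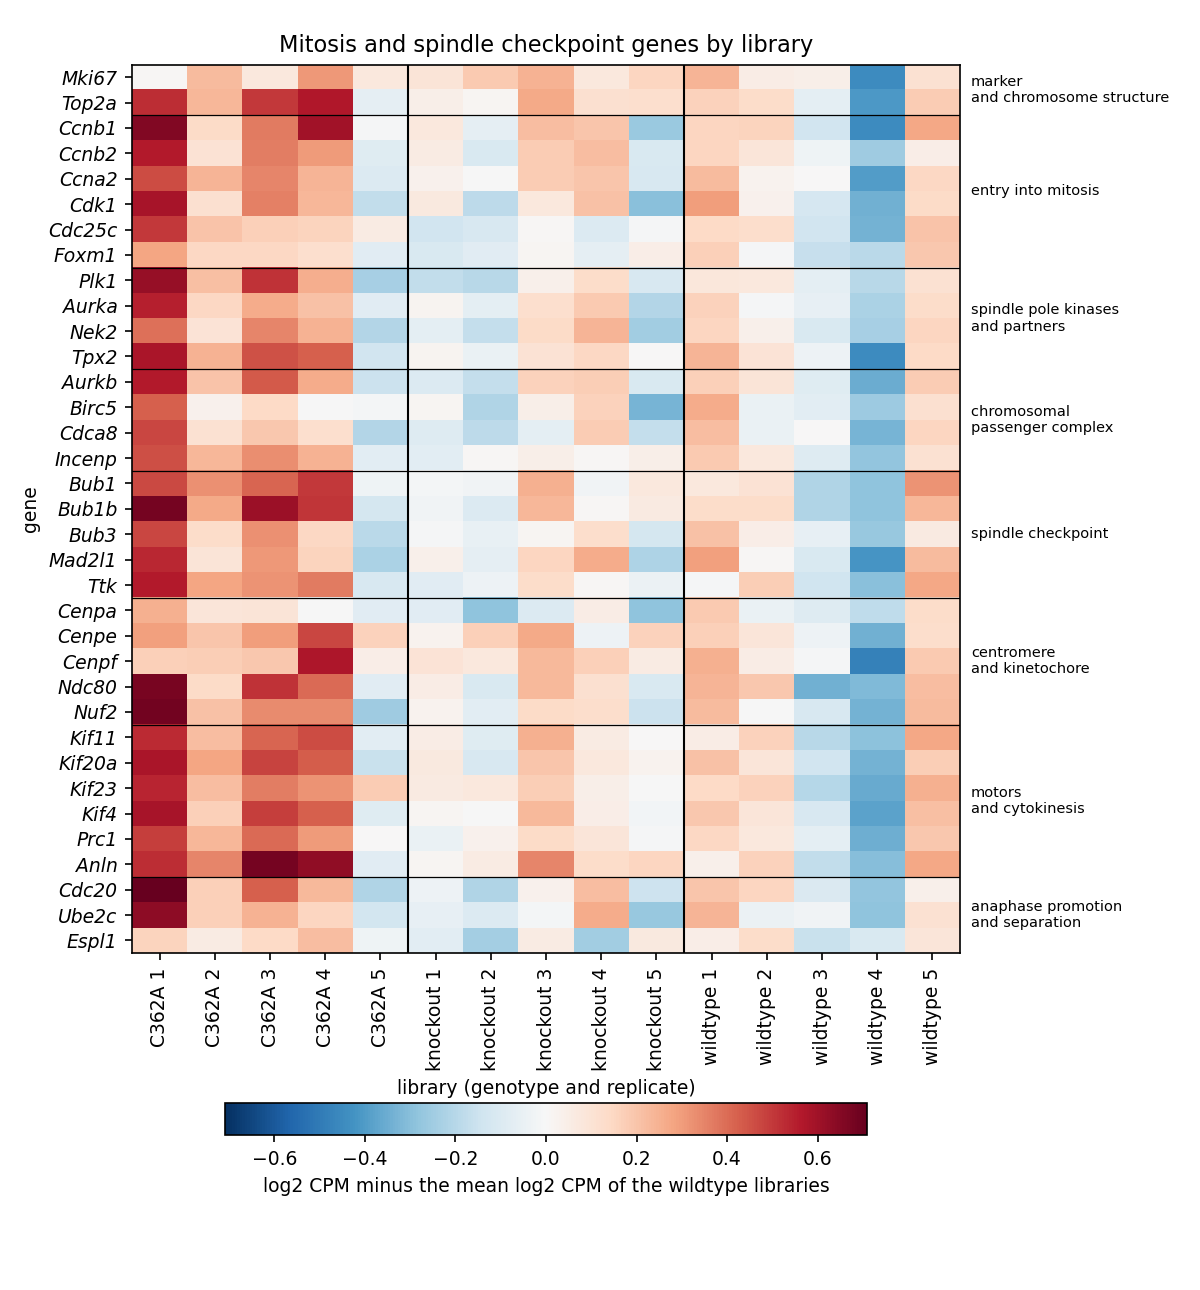
Level of each of the 35 genes (rows, grouped by role) in each of the 15 libraries (columns, genotype and replicate), as log2 CPM minus the mean log2 CPM of the 5 wildtype libraries. C362A replicate 1 is the highest library for 28 genes, wildtype replicate 4 the lowest for 29, and C362A replicate 5 looks like the wildtype libraries.

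Mki67 encodes the Ki-67 protein, which coats mitotic chromosomes and is the usual histological marker of cycling cells, and Top2a encodes the topoisomerase that untangles sister DNA. Top2a had 456, 374, 449, 471 and 303 CPM in the C362A libraries, 327, 320.1, 382, 344 and 345 CPM in the knockout libraries and 356, 347, 303, 239 and 360 CPM in the wildtype libraries. C362A replicates 1 to 4 lay above all wildtype libraries and replicate 5 at their level, so the groups overlapped. Its log2 fold change was 0.36 (SE 0.12) over all libraries and 0.45 (SE 0.11, adjusted p = 0.0276) without C362A replicate 5, and the adjusted p was 0.0276 to 0.647 over the fits leaving out 1 library. Mki67 had 316, 367, 331, 388 and 331 CPM in the C362A libraries, 335, 358, 373, 331 and 349.6 CPM in the knockout libraries and 372, 326, 323, 231 and 339 CPM in the wildtype libraries. C362A replicate 1, the highest library for most of the other genes, was the lowest C362A library for Mki67. Its log2 fold change against wildtype was 0.12 (SE 0.10), and it did not pass in any fit without 1 library.

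Among the 6 genes of entry into mitosis, the median log2 fold change in C362A against wildtype was 0.23. Of these, 2 had an unadjusted p under 0.05, beside 8.08% of all genes higher. Ccnb1, which encodes cyclin B1, the main partner of Cdk1, had 24.5, 17.1, 20.1, 23.5 and 15.4 CPM in the C362A libraries, 16.4, 14.9, 18.1, 17.8 and 12.96 CPM in the knockout libraries and 17.3, 17.3, 14.2, 11.4 and 18.8 CPM in the wildtype libraries. C362A replicates 1, 3 and 4 stood above every wildtype library, replicate 2 among them and replicate 5 near their middle. Its log2 fold change was 0.35 (SE 0.15) and did not pass without C362A replicate 5 either (0.43 (SE 0.14, adjusted p = 0.0622) by edgeR). Ccnb2, for cyclin B2, averaged 92.3 ± 15.7 CPM over the C362A libraries, 79.7 ± 8.53 CPM over the knockout libraries and 77.1 ± 7.98 CPM over the wildtype libraries (SD, n = 5 each). It was 1 of the 17 that passed without C362A replicate 5, with 0.34 (SE 0.10, adjusted p = 0.0462) by edgeR. Ccna2, which encodes the cyclin of S phase and early mitosis, had 0.23 (SE 0.11), and Cdk1, the kinase itself, had 0.23 (SE 0.14). Cdc25c, the phosphatase that activates Cdk1, averaged 19 ± 2.33 CPM over the C362A libraries, 15.5 ± 0.704 CPM over the knockout libraries and 16.4 ± 2.46 CPM over the wildtype libraries, with C362A replicate 1 at 23.0 CPM well above the other C362A libraries. Foxm1, the transcription factor of the G2 and M genes, had 0.12 (SE 0.08), among the smallest differences of the set.

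The 4 spindle pole genes had a median of 0.26, with 3 at an unadjusted p under 0.05 (8.08% of all genes were higher). Plk1, the Polo-like kinase of centrosome maturation and mitotic exit, had 114, 86.4, 106, 89.2 and 63.4 CPM in the C362A libraries, 66.1, 65.05, 76.3, 81.5 and 68.8 CPM in the knockout libraries and 78.9, 78.4, 71.1, 64.98 and 80.4 CPM in the wildtype libraries. C362A replicates 1 to 4 stood above all wildtype libraries, and replicate 5 was the lowest of the 15. With that library the log2 fold change was 0.30 (SE 0.12), and 0.41 (SE 0.10, adjusted p = 0.0249) without it (edgeR). Tpx2, which activates Aurora A on spindle microtubules, averaged 140.2 ± 24.9 CPM over the C362A libraries, 115 ± 6.24 CPM over the knockout libraries and 113 ± 19.2 CPM over the wildtype libraries and had 0.32 (SE 0.13), or 0.41 (SE 0.11, adjusted p = 0.0340) without that library (edgeR). Aurka, the Aurora A kinase, had 0.22 (SE 0.11), and Nek2, the kinase that splits the centrosome pair, had 0.18 (SE 0.12); neither passed in any fit without 1 library.

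The chromosomal passenger complex, which corrects faulty attachments and later directs cytokinesis, showed the smallest median of the roles with more than 3 genes, at 0.19, and its 4 genes differed among themselves. Aurkb, the Aurora B kinase at its core, had 111, 86.5, 102, 90.3 and 67.7 CPM in the C362A libraries, 70.1, 66.9, 84.3, 84.7 and 69.6 CPM in the knockout libraries and 84.5, 79.9, 70.8, 58.8 and 84.98 CPM in the wildtype libraries. Its 4 highest C362A libraries lay above every wildtype library and replicate 5 below 4 of the 5. Aurkb had 0.27 (SE 0.13), or 0.36 (SE 0.11, adjusted p = 0.0495) without that library (edgeR). Incenp, the scaffold, had 0.24 (SE 0.09), or 0.31 (SE 0.08, adjusted p = 0.0361) without it (edgeR). Birc5, for survivin, had 0.11 (SE 0.11) and Cdca8, for borealin, 0.14 (SE 0.12), and neither passed without C362A replicate 5, where they had 0.15 and 0.22.

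The 5 genes of the spindle checkpoint had a median of 0.28, with 3 at an unadjusted p under 0.05 (8.08% of all genes were higher). Bub1b, which encodes BubR1, a part of the complex that inhibits Cdc20, had 165, 124, 156, 146 and 94.2 CPM in the C362A libraries, 101, 96.1, 121, 103 and 108 CPM in the knockout libraries and 112, 112, 88.7, 84.5 and 121 CPM in the wildtype libraries. C362A replicates 1 to 4 all exceeded the highest wildtype library, and replicate 5 was lower than 3 of the wildtype libraries. The log2 fold change was 0.40 (SE 0.13), the second largest of the set, and 0.51 (SE 0.11, adjusted p = 0.0196) without replicate 5 (edgeR, adjusted p 0.0196 to 0.647 over the fits without 1 library). Bub1, the kinase that recruits the checkpoint to kinetochores, averaged 57.9 ± 7.997 CPM over the C362A libraries, 47.3 ± 4.10 CPM over the knockout libraries and 46.03 ± 7.89 CPM over the wildtype libraries, and had 0.33 (SE 0.12) over all libraries. Ttk, the Mps1 kinase that starts the signal, averaged 29.9 ± 4.81 CPM over the C362A libraries, 24.2 ± 1.40 CPM over the knockout libraries and 24.5 ± 3.90 CPM over the wildtype libraries and had 0.28 (SE 0.12). Both passed without C362A replicate 5, at 0.41 (SE 0.10, adjusted p = 0.0308) and 0.37 (SE 0.10, adjusted p = 0.0379) by edgeR. Bub3 and Mad2l1, the WD repeat partner of Bub1 and the Mad2 protein that binds Cdc20, had 0.19 (SE 0.11) and 0.17 (SE 0.14), and neither passed in any of these fits.

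The log2 fold changes ranged most widely among the centromere and kinetochore genes, with a median of 0.28 over 5 genes. Of these, 2 had an unadjusted p under 0.05, where 8.08% of all genes were higher. Cenpa, the histone H3 variant that marks centromeres, had 91.2, 81.2, 81.6, 76.5 and 72.3 CPM in the C362A libraries, 72.5, 62.8, 71.7, 79.5 and 62.8 CPM in the knockout libraries and 87.2, 74.2, 71.8, 67.7 and 83.8 CPM in the wildtype libraries. The 3 groups overlapped throughout, and its log2 fold change in C362A against wildtype was 0.07 (SE 0.09). Cenpf, a large coiled-coil protein of the outer kinetochore, had 83.8, 84.04, 85.2, 111 and 76.9 CPM in the C362A libraries, 79.8, 78.6, 87.4, 83.8 and 77.6 CPM in the knockout libraries and 88.9, 77.2, 74.1, 53.4 and 84.7 CPM in the wildtype libraries. C362A replicate 4 stood alone at the top and wildtype replicate 4 alone at the bottom, and the log2 fold change was 0.22 (SE 0.12). Cenpe, the kinesin that carries chromosomes to the spindle equator, averaged 69.1 ± 5.92 CPM over the C362A libraries, 61.7 ± 5.23 CPM over the knockout libraries and 57.1 ± 7.58 CPM over the wildtype libraries and had 0.28 (SE 0.09); its adjusted p without C362A replicate 5 was 0.0514 (edgeR), just above the threshold. Ndc80 and Nuf2 form the rod that grips microtubules and had 0.33 (SE 0.15) and 0.28 (SE 0.14). Without C362A replicate 5 Nuf2 passed (0.39 (SE 0.12, adjusted p = 0.0460)) and Ndc80, with the larger value but also the larger error, did not (0.42 (SE 0.14, adjusted p = 0.0569)), both by edgeR.

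The motors and cytokinesis genes were the role in which every gene, 6 of 6, had an unadjusted p under 0.05, beside 8.08% of all genes higher. Every gene of the role also passed without C362A replicate 5, beside 4.29% of all genes called higher. That library was the lowest of the C362A libraries for each of these 6 genes, so the passes are not separate support for a difference. Genes of all roles varied together within genotypes (median Pearson r 0.82 over pairs of genes), and the roles were not tested against each other. The median of the role in C362A against wildtype was 0.31 over all libraries and 0.40 without C362A replicate 5. Anln encodes anillin, the scaffold of the contractile ring, and had 113, 99.8, 126, 121 and 74.4 CPM in the C362A libraries, 79.3, 81.7, 99.8, 85.8 and 87.4 CPM in the knockout libraries and 80.4, 88.1, 69.6, 63.7 and 95.1 CPM in the wildtype libraries. C362A replicates 1, 3 and 4 were the 3 highest of the 15 libraries, and C362A replicate 5 lay below 3 of the wildtype libraries. The log2 fold change was 0.43 (SE 0.13) over all libraries and 0.53 (SE 0.11, adjusted p = 0.0186) without replicate 5 (edgeR, adjusted p 0.0186 to 0.647 over the fits without 1 library).

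Kif20a, the kinesin that brings the passenger complex to the midzone, had 152, 124, 142, 137 and 91.3 CPM in the C362A libraries, 107, 94.3, 117, 107 and 104 CPM in the knockout libraries and 118, 108, 92.6, 80.8 and 115 CPM in the wildtype libraries. C362A replicates 1 to 4 lay above all wildtype libraries and replicate 5 below 4 of them. For the 5 against 5 libraries it had 0.33 (SE 0.12), or 0.43 (SE 0.10, adjusted p = 0.0253) without replicate 5 (edgeR). Kif23, the motor of centralspindlin, had 91.5, 72.95, 80.6, 78.2 and 71.2 CPM in the C362A libraries, 65.6, 66, 70.9, 64.6 and 62.6 CPM in the knockout libraries and 69.2, 70.4, 54.6, 48.97 and 74.8 CPM in the wildtype libraries. Here C362A replicate 5 kept above every knockout library, though not above wildtype replicate 5. Kif11, which pushes the spindle poles apart, averaged 130.4 ± 20.7 CPM over the C362A libraries, 109 ± 9.55 CPM over the knockout libraries and 105 ± 17.1 CPM over the wildtype libraries and had 0.31 (SE 0.12). Kif4, a chromosome-bound kinesin, had 0.32 (SE 0.12), and Prc1, its partner that bundles midzone microtubules, had 0.28 (SE 0.10). Without replicate 5 the 4 other motor and midzone genes had 0.35 (Kif23), 0.40 (Kif11), 0.41 (Kif4) and 0.35 (Prc1), with edgeR adjusted p between 0.0352 and 0.0496.

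The 3 genes of anaphase promotion and separation had a median of 0.23, and none had an unadjusted p under 0.05 (8.08% of all genes were higher). Cdc20, the activator of the anaphase-promoting complex and the target of the checkpoint, had 151, 104, 124, 108 and 79.6 CPM in the C362A libraries, 90, 79.8, 94.2, 108 and 83.5 CPM in the knockout libraries and 106, 102, 85.9, 76.2 and 94.6 CPM in the wildtype libraries. C362A replicate 1 was far above the other libraries, replicates 3 and 4 also lay above the wildtype range, and replicate 5 lay below all wildtype libraries but replicate 4. Cdc20 had 0.28 (SE 0.14), or 0.39 (SE 0.12, adjusted p = 0.0490) without replicate 5 (edgeR). Ube2c, the ubiquitin-conjugating enzyme of that complex, averaged 126 ± 24.99 CPM over the C362A libraries, 105 ± 14.4 CPM over the knockout libraries and 108 ± 14.4 CPM over the wildtype libraries and had 0.23 (SE 0.13). Espl1, which encodes separase, had 51.9, 48.5, 51.3, 54.1 and 45.5 CPM in the C362A libraries, 44.2, 39.3, 48.5, 39.2 and 48.9 CPM in the knockout libraries and 48.1, 50.9, 41.7, 43.3 and 49.4 CPM in the wildtype libraries. Its libraries spread the least of the 35 genes, and its log2 fold change was 0.11 (SE 0.08).

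**Figure D2:**
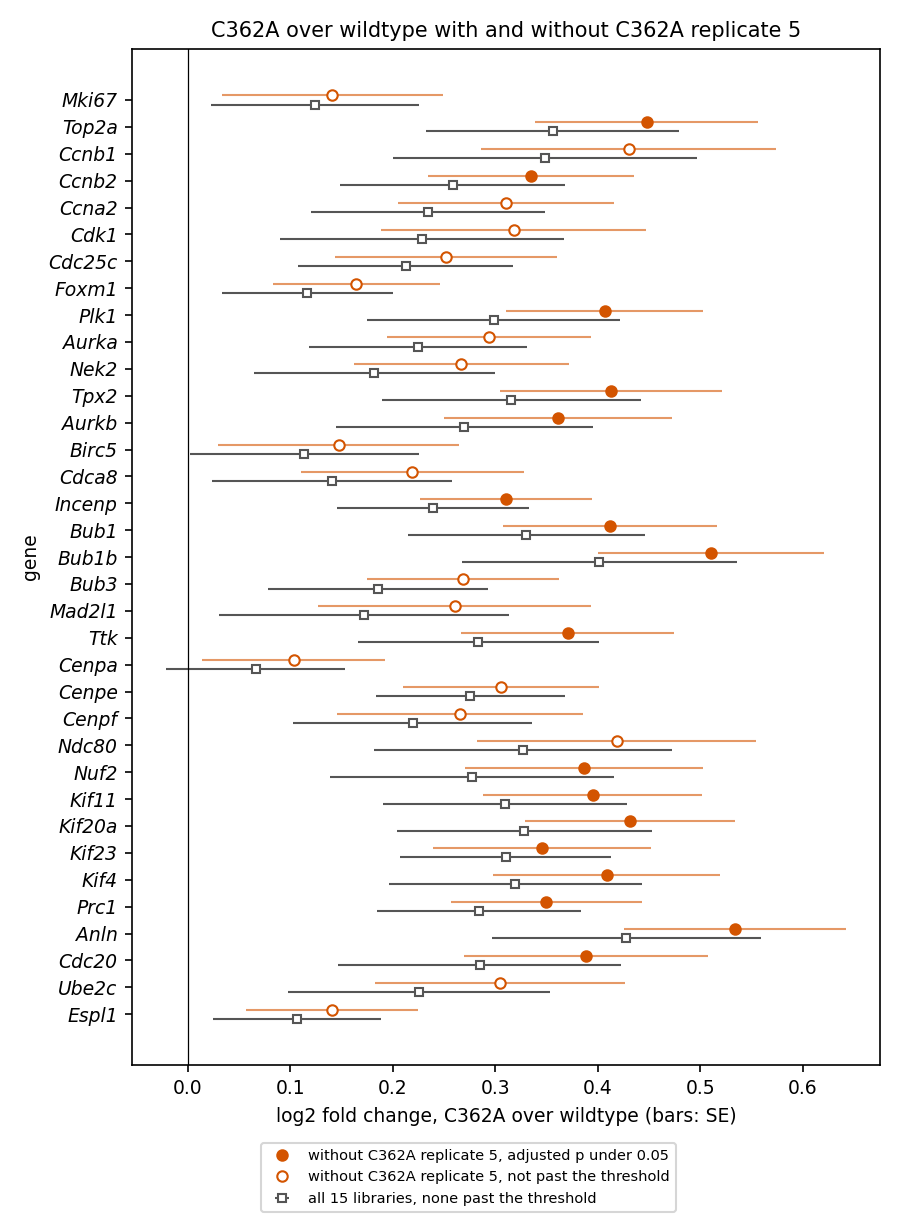
Log2 fold change of each of the 35 genes, C362A over wildtype, with SE, from the edgeR fit without C362A replicate 5 (circles, filled where the adjusted p is under 0.05) and from the fit of all 15 libraries (squares). All values are above 0, with 17 genes past the threshold without that library and 0 with it.

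In knockout against wildtype the genes showed no common direction. The log2 fold change was positive for 19 and negative for 16 of the 35, with a median of 0.02 beside −0.00 over all genes, of which 48.2% were positive. No gene passed the edgeR test (adjusted p = 0.9999 for all 35) and 0 had an unadjusted p under 0.05, where 0.0272% of all genes were called higher and 0.0109% lower, and 1.2% and 1.23% were past the unadjusted threshold. DESeq2 and limma-voom called 0 of the 35 (0.06% and 0.0272% of all genes higher). The extremes were Cenpa at −0.14 (SE 0.09) and Mki67 at 0.13 (SE 0.10), followed by Anln at 0.13 (SE 0.13) and Cenpe at 0.11 (SE 0.09). For none of the 35 did the knockout and wildtype libraries separate (0.37% of all genes were fully higher and 0.332% fully lower). The SEs lay between 0.08 and 0.15, and the absence of calls does not show equal levels.

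In C362A against knockout, 34 of the 35 log2 fold changes were positive, Mki67 being the exception at −0.01 (SE 0.10), and the median was 0.26 (a 1.20-fold difference) beside 0.01 over all genes, of which 53.2% were positive. None passed the edgeR test (adjusted p 0.317 to 0.971, with 0.0109% of all genes called higher), and DESeq2 and limma-voom called 0 of the 35 (0.104% and 0.0163% of all genes higher). Before adjustment, 19 genes had p under 0.05, all of them higher, beside 6.49% of all genes higher and 7.41% lower. The libraries of the 2 groups separated for 2 genes, Cdc25c and Kif23 (1.11% of all genes separated with C362A higher). Cdc25c had 22.99, 18.7, 18.3, 18.1 and 16.9 CPM in C362A and 14.8, 14.98, 16.3, 15.2 and 16.2 CPM in knockout libraries. The lowest C362A library stood just above the highest knockout library, and the log2 fold change was 0.30 (SE 0.11). For Kif23 the log2 fold change was 0.26 (SE 0.10), with the lowest C362A library at 71.2 CPM and the highest knockout library at 70.9 CPM. Gaps this narrow may lie within counting error.

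Without C362A replicate 5, 6 of the 35 were called higher in C362A against knockout (1.78% of all genes were called higher), and the median was 0.33. They were Plk1 at 0.47 (SE 0.10, adjusted p = 0.0383), Bub1b at 0.48 (SE 0.11, adjusted p = 0.0389), Anln at 0.41 (SE 0.11, adjusted p = 0.0467), Kif20a at 0.39 (SE 0.10, adjusted p = 0.0449), Ttk at 0.39 (SE 0.10, adjusted p = 0.0467) and Incenp at 0.31 (SE 0.08, adjusted p = 0.0467), all by edgeR. Over the fits leaving out 1 library their adjusted p reached up to 0.595. This comparison and the one with wildtype share the C362A libraries, so their likeness is not independent. Here too, the library left out was the lowest of its group for 34 of the 35 genes.

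Averaged over the 35 genes, the log2 level relative to the wildtype mean was 0.49, 0.18, 0.34, 0.31 and −0.08 in C362A replicates 1 to 5, −0.01, −0.07, 0.13, 0.10 and −0.07 in knockout replicates 1 to 5, and 0.17, 0.07, −0.10, −0.31 and 0.17 in wildtype replicates 1 to 5. The group means were 0.25 ± 0.22 in C362A, 0.02 ± 0.10 in knockout and 0.00 ± 0.21 in wildtype (SD, n = 5 each). The spread within C362A and within wildtype was about as wide as the difference between them, and the knockout libraries were the most alike.

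**Figure D3:**
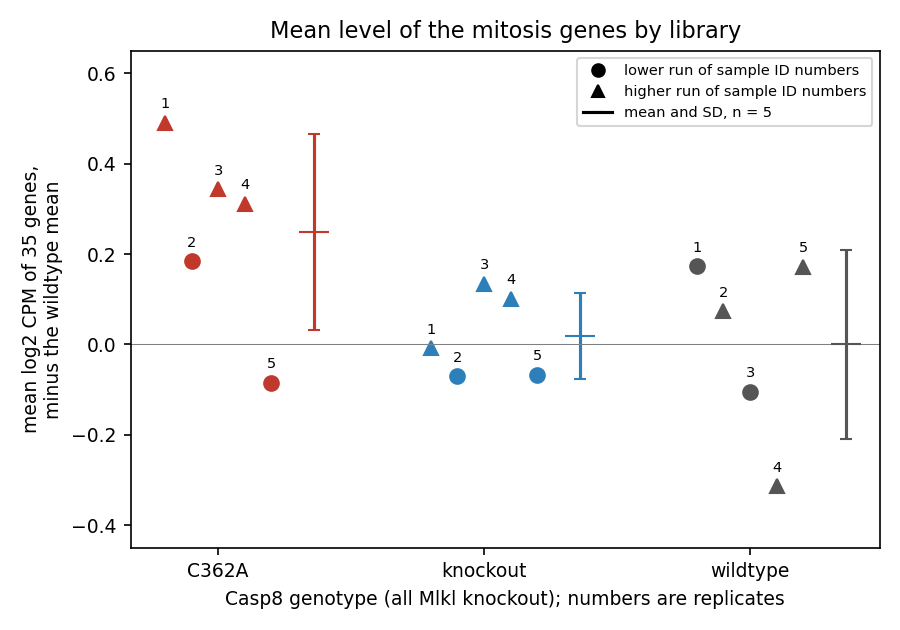
Mean log2 CPM of the 35 genes in each library, minus the wildtype mean, by genotype, with replicate numbers, the run of sample ID numbers (circles lower, triangles higher) and the mean with SD over 5 libraries. C362A replicate 1 is highest at 0.49 and wildtype replicate 4 lowest at −0.31; C362A replicate 5, at −0.08, is in the lower run.

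Within the runs of sample ID numbers the differences between C362A and wildtype were computed separately. In the lower run both C362A libraries lacked Y-linked RNA and both wildtype libraries had it, so genotype and sex cannot be told apart there, and in the higher run 1 of 3 C362A and 1 of 3 wildtype libraries lacked it. In the lower run, which holds C362A replicates 2 and 5, knockout replicates 2 and 5 and wildtype replicates 1 and 3, 17 log2 fold changes were positive and 18 negative, the median was −0.00, and 0 genes passed (edgeR, with 0 called among all genes, and 0 of the 35 at an unadjusted p under 0.05, where 1.21% of all genes were higher and 0.499% lower). In the higher run all 35 were positive, the median was 0.40, and 16 genes rose while 0 fell (5.07% of all genes were called higher and 8.44% lower), led by Bub1b at 0.56 with an edgeR adjusted p of 0.0159 in that run. The higher run holds C362A replicate 1, the highest library for 28 genes, and wildtype replicate 4, the lowest for 29. As C362A replicate 5 is in the lower run, the contrast of the runs is not independent of leaving that library out. The difference between the runs was positive for all 35 genes, with a median of 0.43, but passed for 0 of them (interaction test in edgeR, adjusted p 0.157 to 0.869, with 16 at an unadjusted p under 0.05 and positive, against 6.48% of all genes). In knockout against wildtype the medians were −0.09 in the lower and 0.10 in the higher run, and in C362A against knockout 0.12 and 0.34. None of the 35 passed in either run of these comparisons (called higher were 0% of all genes in both runs for knockout against wildtype, and 0.00537% in the lower and 0.665% in the higher run for C362A against knockout).

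**Figure D4:**
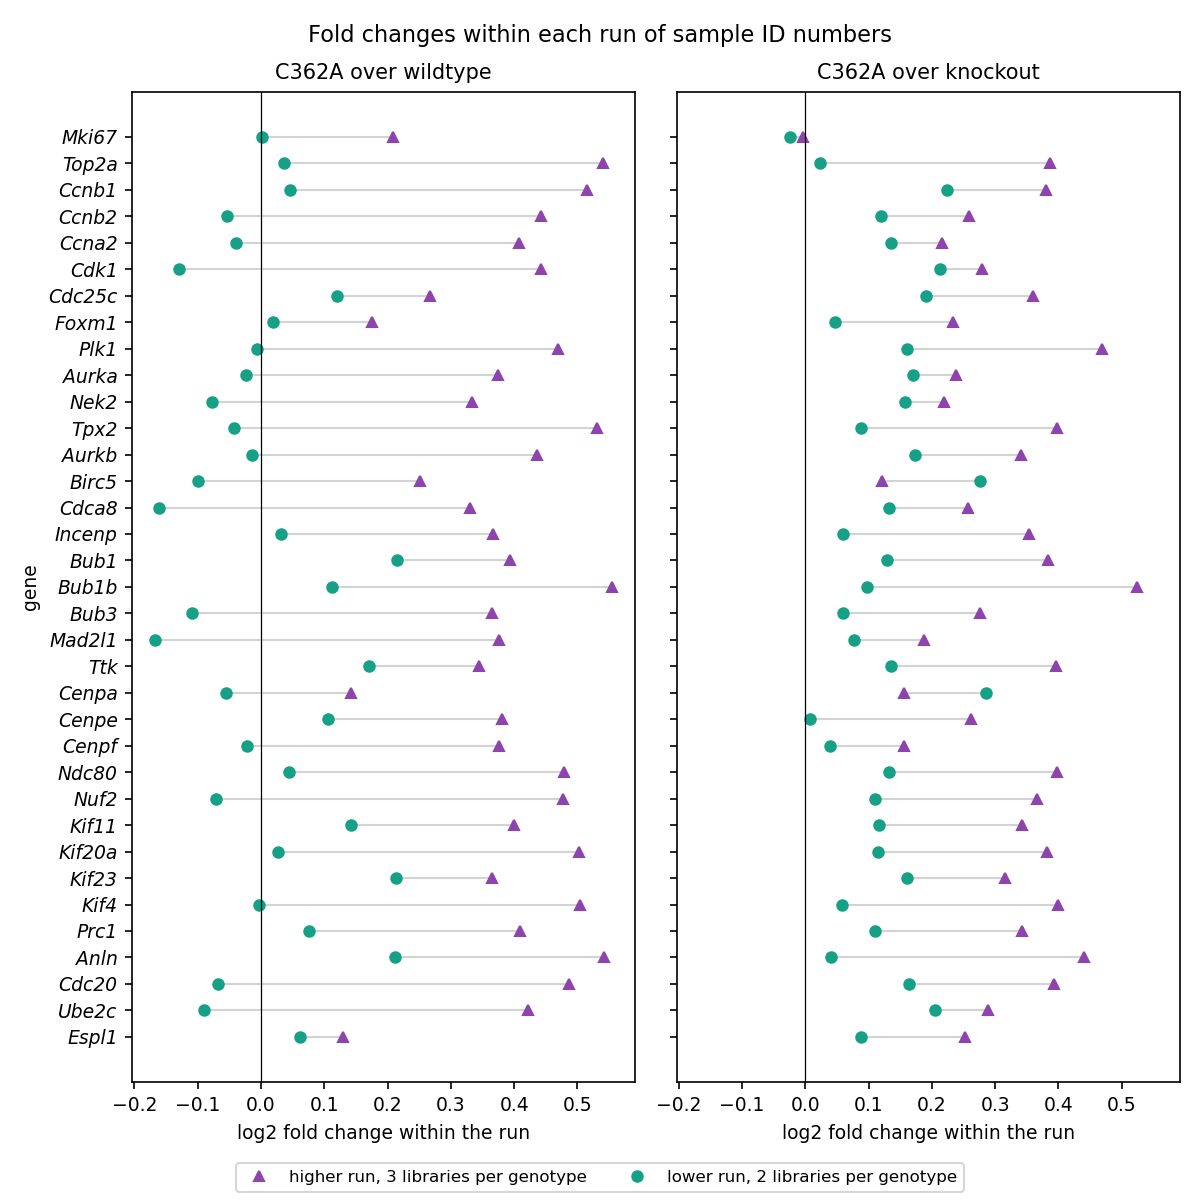
Log2 fold change of each gene within the lower run (circles, 2 libraries per genotype) and the higher run (triangles, 3 per genotype) of sample ID numbers, for C362A over wildtype (left) and C362A over knockout (right). Against wildtype all 35 triangles lie above 0 and the circles on both sides of it, with a median of −0.00.

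Markers of enterocytes, the absorptive cells that leave the cycle as they mature, moved with the mitosis genes in the opposite direction. Their mean log2 level relative to wildtype was −1.07, −0.52, −0.58, −0.55 and −0.06 in C362A replicates 1 to 5, 0.15, 0.30, 0.24, −0.02 and 0.16 in knockout replicates 1 to 5, and −0.62, 0.02, 0.32, 0.73 and −0.46 in wildtype replicates 1 to 5. The summed level of the 25 markers was 9505.6 to 20396 CPM in C362A libraries, 21241.5 to 25413.9 CPM in knockout libraries and 13050.2 to 38123.2 CPM in wildtype libraries. Over the 15 libraries the enterocyte mean and the mean of the 35 genes had Pearson r = −0.91 and Spearman rho = −0.87. The r was −0.82 in the 13 libraries without C362A replicate 1 and wildtype replicate 4, −0.94 in the 6 libraries of the lower run and −0.95 in the 9 of the higher run. Within genotypes, over only 5 libraries each, r was −0.95 in C362A, −0.38 in knockout, where the enterocyte mean covered a narrow range, and −0.97 in wildtype. All points share their library and its scaling, so no p is given. With the enterocyte mean as a covariate, the median log2 fold change of the 35 genes in C362A against wildtype was 0.03, with 22 positive and 0 called by edgeR. In C362A against knockout it was −0.07, with 7 positive, 28 negative and 0 called by edgeR. In knockout against wildtype it was 0.11, with 32 positive, 3 negative and 0 called by edgeR. The shares of all genes called in these fits are not given here. The part of enterocyte content in the difference between genotypes was not tested.

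**Figure D5:**
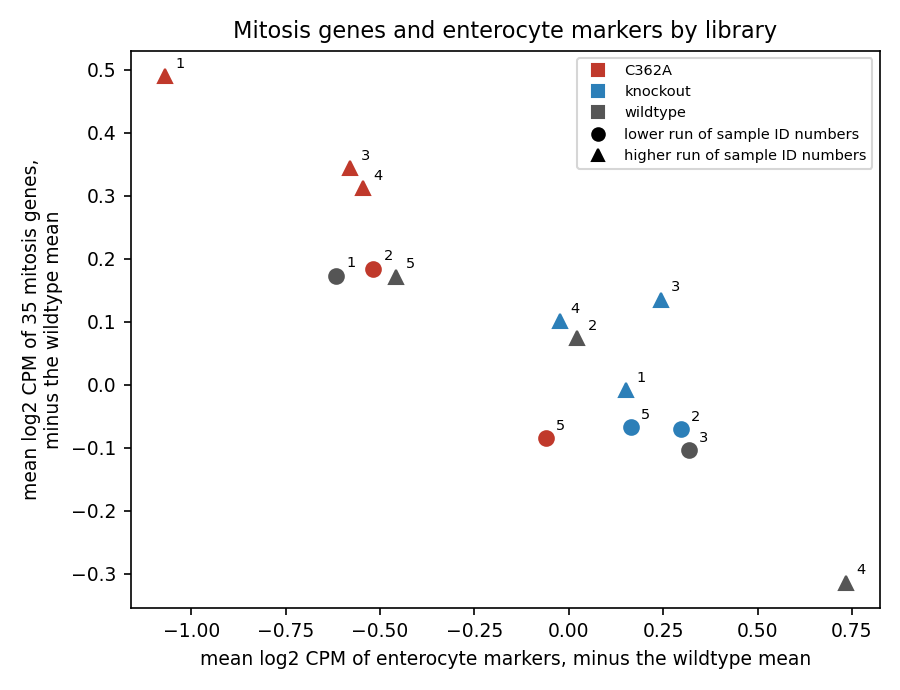
Mean log2 CPM of the 35 mitosis genes against that of 25 enterocyte markers, each minus its wildtype mean, for the 15 libraries, coloured by genotype and numbered by replicate, with circles for the lower and triangles for the higher run of sample ID numbers. The points run from C362A replicate 1 at the upper left to wildtype replicate 4 at the lower right, with wildtype replicates 1 and 5 beside the C362A libraries.

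Other cell types moved less closely with the 35 genes. The mean log2 level of the 12 smooth muscle markers had r = 0.64 with that of the 35 genes over the 15 libraries, the 12 fibroblast markers 0.66, the 11 erythroid markers 0.33, the 10 stem and progenitor markers 0.25, the 10 neuron and glia markers 0.25, the 10 macrophage markers 0.21, the 10 endothelial markers 0.14 and the 12 pan-epithelial markers 0.02. With genotype means removed, r was 0.55 for smooth muscle, 0.50 for fibroblast, 0.45 for erythroid and 0.07 for stem and progenitor markers. It was 0.23 for neuron and glia, −0.21 for macrophage, −0.04 for endothelial and 0.08 for pan-epithelial markers, beside −0.90 for enterocyte markers. Their summed levels overlapped between C362A and wildtype for each of these lists. No marker was at 0 in a whole group. Smooth muscle and fibroblast markers also had positive log2 fold changes in C362A against wildtype, 12 of 12 in each list, with medians of 0.23 and 0.22 and 0 called by edgeR. Macrophage markers were positive for 9 of 10, with a median of 0.22, where 51.4% of all genes were positive. Of these markers 6 had an unadjusted p under 0.05, beside 8.08% of all genes higher and 7.8% lower. By edgeR 1 was called, Adgre1, the F4/80 surface receptor, named after its values were seen. Of all genes, 0.0817% were called higher. Adgre1 had 13.7, 12.8, 16.1, 15.5 and 13.6 CPM in the C362A libraries, 11.5, 12.3, 15.3, 8.51 and 14.4 CPM in the knockout libraries and 8.76, 9.21, 7.58, 9.38 and 7.64 CPM in the wildtype libraries. Its C362A and wildtype libraries did not overlap, as for 0.86% of all genes with C362A higher. The log2 fold change of Adgre1 was 0.75 (SE 0.13, edgeR adjusted p = 0.0361). Without C362A replicate 5, edgeR called 5 of 12 smooth muscle, 4 of 12 fibroblast, 3 of 10 macrophage, 2 of 10 endothelial, 1 of 10 neuron and glia and 1 of 10 stem and progenitor markers higher in C362A against wildtype (4.29% of all genes were), and 6 of 25 enterocyte markers lower (5.47% of all genes were). It called 0 of the pan-epithelial and 0 of the erythroid markers, with 0 and 2 at an unadjusted p under 0.05. Of all genes, 14.1% were higher and 16.3% lower at that unadjusted threshold. The summed smooth muscle level was 6382 to 8502 CPM in C362A libraries, 6481 to 7770.3 CPM in knockout libraries and 5812 to 6962 CPM in wildtype libraries, and the summed fibroblast level was 7167 to 9846 CPM in C362A libraries, 6548 to 9746 CPM in knockout libraries and 5927 to 9057 CPM in wildtype libraries. Their part in the result was not tested.

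Within genotypes the levels of the 35 genes varied together. After each genotype's mean was removed, the median Pearson r over the 595 pairs of genes was 0.82 across the 15 libraries, and 538 pairs had an r above 0.5. Kif4 and Aurkb followed the mean of the other genes most closely (r = 0.98 and 0.97), with Tpx2, Kif20a, Prc1 and Nuf2 next (0.97 each). Mki67 (0.49), Espl1 (0.55) and Cenpe (0.66) followed it least, and the lowest pair was Ube2c with Espl1 at 0.12. These correlations share libraries and depth and are given without a p. Over all 15 libraries the coefficient of variation was between 9.77% for Espl1 and 20.9% for Bub1b.

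The genes outside the set with the pattern most like its mean, by Pearson r over 15 libraries with genotype means removed and among 12711 genes with a mean of at least 5 CPM, were Exo1 (0.99), Melk (0.98), Racgap1 (0.97), Wee1 (0.97), Mcm6 (0.97), Nusap1 (0.97), Usp1 (0.97), Ipo11 (0.97), Dkc1 (0.97) and Prim2 (0.97). Exo1 encodes a DNA repair exonuclease, Racgap1 the partner of Kif23 in centralspindlin, Wee1 the kinase that restrains Cdk1, and Mcm6 and Prim2 subunits of the replicative helicase and primase. Exo1 had a log2 fold change of 0.27 (SE 0.17) in C362A against wildtype and Racgap1 0.26 (SE 0.10), neither of which passed the edgeR test (adjusted p = 0.416 and 0.285).

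Set side by side per length, the deposited RPKM values placed Ube2c highest of the 35 in wildtype intestine at 113 ± 14.8 RPKM, followed by Ccna2 at 67.8 ± 10.3, Top2a at 59.8 ± 9.37 and Bub3 at 54.4 ± 6.32 RPKM (SD, n = 5). The next below, Cdca8 at 52.8 ± 7.35 and Cdc20 at 50.8 ± 6.49 RPKM, did not differ from Bub3 beyond that spread, and Top2a did not differ from Ccna2. The lowest were Cdc25c at 5.82 ± 0.859, Cenpf at 6.38 ± 1.15 and Espl1 at 6.55 ± 0.547 RPKM, and the median of the 35 was 25.2 RPKM. C362A libraries kept Ube2c at the top (132 ± 26.8 RPKM) and Cdc25c at the bottom (6.74 ± 0.855 RPKM).

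Further genes of the mitotic and cell cycle machinery, in 8 lists by function with 166 genes in all, had 0 members called by edgeR in C362A against wildtype, where 0.0817% of all genes were called higher. Without C362A replicate 5, 42 of the 166 rose (25.3%), beside 4.29% of all genes, and 0 fell, beside 5.47%. That library was singled out by its low levels of the mitosis genes described above. The library means of every list but the cell cycle brakes and D cyclins (r = 0.44) had r between 0.89 and 0.97 with those of the mitosis genes. The counts without that library, here and for each list that follows, are therefore not separate support for a difference. The 18 condensin and cohesin genes, which fold chromosomes and hold sisters together, all had positive log2 fold changes with a median of 0.24, and 10 rose without replicate 5. Smc3, a cohesin subunit, averaged 172 ± 31.9 CPM in C362A and 130.0 ± 17.5 CPM in wildtype libraries (SD, n = 5 each), a log2 fold change of 0.40 (SE 0.12). Ncapg of condensin had 0.31 and Stag2 of cohesin 0.35. The 23 other spindle and cytokinesis genes had a median of 0.27 with 22 positive, and 9 rose without replicate 5. Among them Dlgap5, a spindle protein, had 0.40 (SE 0.13), Ckap5, a microtubule polymerase, had 0.36 (SE 0.10) and Kif2c, a microtubule-depolymerising kinesin, had 0.35 (SE 0.11).

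The 33 other kinetochore and checkpoint genes had a lower median of 0.15 with 31 positive, and 2 rose without C362A replicate 5, a share of 6.06% that is near the 4.29% of all genes. Sgo2a and Sgo1, the shugoshins that protect centromeric cohesin, had 0.33 (SE 0.12) and 0.26 (SE 0.11), and the kinetochore scaffold Knl1 0.28 (SE 0.12). The 16 other subunits and regulators of the anaphase-promoting complex had a median of 0.09 with 13 positive, and 1 rose without that library, Anapc1 (0.24, edgeR adjusted p = 0.0479), a share of 6.25% that is also near that of all genes. Anapc4 and Cdc23 had 0.17 each over all libraries. The 15 other genes of mitotic entry had a median of 0.20 with 12 positive, and 2 rose without that library (13.3%). Mastl, the kinase that shields Cdk1 substrates, had 0.40 (SE 0.12), Wee1 0.30 (SE 0.12) and the centriole kinase Plk4 0.32 (SE 0.14).

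The 22 regulators of the MuvB, E2F and NF-Y group had a median of 0.11 with 17 positive. Without C362A replicate 5, 4 were called higher (18.2%), beside 4.29% of all genes. Nfya, the sequence-specific subunit of NF-Y, had 0.21 (SE 0.08), and the MuvB subunits Rbbp4 and Lin9 had 0.23 (SE 0.09) and 0.33 (SE 0.14). All 26 DNA replication genes had positive values, with a median of 0.27, and 12 were called higher without that library (46.2%). Pola1, the polymerase of primer synthesis, averaged 53.7 ± 13.4 CPM in C362A and 39.3 ± 7.73 CPM in wildtype libraries (SD, n = 5 each) and had 0.45 (SE 0.17), the ribonucleotide reductase subunit Rrm1 0.36 (SE 0.14) and the chromatin assembly factor Chaf1a 0.32 (SE 0.13). The library means of this list had r = 0.97 with those of the 35 genes over the 15 libraries. The 13 cell cycle brakes and D cyclins had a median of 0.04 with 10 positive. Without replicate 5, 2 of them were called higher (15.4%). Ccnd1, for cyclin D1, had 0.25 (SE 0.08), Trp53 0.27 (SE 0.11) and Cdkn1c, the inhibitor p57, −0.32 (SE 0.13). In knockout against wildtype the 8 lists had medians between −0.05 and 0.06 and 0 genes called, where 0.0272% of all genes were called higher and 0.0109% lower.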

How the data were processed

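Polyadenylated RNA was sequenced as single-end 50 bp reads from a TruSeq v2 kit, which does not mark strand, so overlapping genes on opposite strands cannot be told apart. Reads were aligned with GSNAP to GRCm38, per the submitters' processing notes, and for the aligner's version and settings and the gene annotation, nothing is given in the sources used here. The deposited counts are uniquely aligned reads per gene, per the file headers, which lowers genes with near-identical copies. The deposited RPKM values were scaled by the authors with a size factor per library, per the file headers, and were used only to compare levels between genes and in 2 alternatives on log2(RPKM + 1) and log2(RPKM + 0.1). IDs were named from RefSeq and GENCODE, and unnamed IDs held 1.69% to 1.96% of counts and stayed in the tests. Library replicates were numbered in accession order, and every pair within a genotype differed beyond sampling noise (chi-square per gene 10.7 to 138 over 30 pairs).

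The 3 genotypes were fitted together over the 15 libraries in edgeR 4.0.16 (R 4.3.3), with TMM factors (0.949 to 1.05), filterByExpr (minimum count 10, minimum total 15) and the robust quasi-likelihood test. It tested 18370 genes, with a biological coefficient of variation of 0.174 and Benjamini-Hochberg adjustment over all of them, called under 0.05. Log2 CPM used a prior count of 2. The script was tested on simulated data. Alternatives were other scalings, filters and tests (DESeq2 1.42.0, limma 3.58.1), covariates, a block for the runs of sample ID numbers, a threshold of 0.01 and leaving out each library, and the interaction between runs was added after seeing the data.

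The 35 genes and all gene lists were chosen with earlier results of these data known, so no list was tested. Genes were named by rule: every one of the 35, Casp8, the 3 genes of each companion list with the smallest p in C362A against wildtype, and the 10 other genes most like the mean of the 35. Of the marker symbols, Ahsp was not found. A planned search for the degradation motif KEN in protein sequences was not run, as no protein table was used here.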

Additional observations from a re-analysis of the deposited data

Results flagged for a closer look

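In 108 groups of 5 libraries (the 35 genes and their mean in each genotype), 3 had a library whose gap to its nearest neighbour, divided by the range of the group, exceeded Dixon's critical value of 0.71. Chance alone flags about 1 in 20 such groups. Cdc25c stood at 23.0 CPM in C362A replicate 1, with the next C362A library at 18.7 CPM. Cenpf stood at 111 CPM in C362A replicate 4, with the next C362A library at 85.2 CPM. Kif4 stood at 59.7 CPM in knockout replicate 3, with the next knockout library at 52.6 CPM.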

How the results depend on the processing

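Leaving out each library in turn gave 0 to 17 of the 35 genes called in C362A against wildtype, 0 to 6 in C362A against knockout, 0 in knockout against wildtype, and 0 to 42 called genes over the companion lists. The upper ends all came from leaving out C362A replicate 5. The median log2 fold change of the 35 genes then ranged over 0.18 to 0.34, 0.19 to 0.33 and −0.07 to 0.06 in these 3 comparisons. The other alternatives, in scaling, filter, test, values, covariate, block or threshold, called 0 of the 35 in each comparison. Apart from DESeq2 and limma-voom, the shares of all genes called in these fits are not given here. The enterocyte covariate moved the median to 0.025 in C362A against wildtype and to −0.073 in C362A against knockout, and turned the sign of 13 genes against wildtype: Ccna2 (−0.0087), Cdk1 (−0.077), Foxm1 (−0.053), Nek2 (−0.044), Aurkb (−0.0024), Birc5 (−0.10), Cdca8 (−0.13), Bub3 (−0.049), Mad2l1 (−0.15), Cenpa (−0.10), Nuf2 (−0.044), Cdc20 (−0.016) and Ube2c (−0.054). Against knockout it turned 27 of the 34 positive values negative, the lowest at −0.29, among them Incenp (−0.031), Kif20a (−0.078) and Kif23 (−0.027) of the genes named in that comparison, and in knockout against wildtype it turned 13 negative values positive. The cause was not tested. In the last 150 bases of the promoter windows, GGCGGG was in 50.0% of those of the 35 genes and 28.0% of all. No paired analysis was possible because the labels carry no replicate numbers. The least abundant gene had 349 counts in its lowest library, and 5 libraries per genotype set most of the precision. Counting error may still matter where libraries of 2 groups were only narrowly apart, as for Cdc25c and Kif23.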
